A study of Drosophila melanogaster with 6 samples.

Results

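Complex I (NADH:ubiquinone oxidoreductase) is the main entry point of electrons into the mitochondrial respiratory chain. Its peripheral arm, in the matrix, oxidises NADH on a flavin and passes the electrons along iron-sulphur clusters to ubiquinone, and its membrane arm pumps protons across the inner membrane. The core subunits carry out this chemistry, whereas the accessory subunits surround them and are needed for assembly and stability. In flies most subunits are encoded in the nucleus and the rest by mitochondrial DNA (mtDNA), and flight muscle, one of the most oxidative tissues known, depends on both sets.

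The genes described here are the nuclear Complex I genes of *Drosophila melanogaster*, taken as every gene whose symbol starts with ND- together with CG40472, which gave 41 of the 17494 genes in the count table. They comprise 7 core subunit genes, 26 accessory subunit genes and 6 genes whose symbols mark them as paralogs of a subunit gene by a final L or L and a number. CG40472, which the study lists with the Complex I subunits, and ND-MLRQ, whose mammalian counterpart NDUFA4 is now assigned to Complex IV and which the study lists there, are kept apart from both classes. The rule leaves out 2 nuclear subunit genes with other names, NP15.6 and CG11752.

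RNA was measured in hand-dissected indirect flight muscles of 2-day-old adult females, with 30 flies pooled per sample. In 3 samples *Mef2*-GAL4 was crossed to *M1BP* RNAi, and in 3 samples, called WT, *Mef2*-GAL4 was crossed to w1888, so that every fly carried the driver. M1BP is a zinc-finger transcription factor that binds the Motif 1 element of promoters, and the comparison asks which genes change in muscle when it is knocked down. *Mef2*-GAL4 is active at all stages of myogenesis and is not limited to flight muscle, and the data are those of the weaker of the RNAi lines used in the study. All samples are whole-muscle RNA, in which fewer cells of a type and less RNA per cell cannot be told apart.

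The libraries held 37908823 to 64768186 counts in M1BP RNAi and 45132859 to 64871987 in WT, of which mtDNA genes took 54.0% to 59.4% in M1BP RNAi and 71.5% to 76.3% in WT. The 41 genes made up 3.17% to 3.39% of the nuclear counts in M1BP RNAi and 3.32% to 3.76% in WT. Counts were scaled with TMM factors to a common library size (normalised counts) and tested with edgeR's quasi-likelihood test over the 9276 genes that passed a filter on low counts, with Benjamini-Hochberg adjustment. Calls were made at adjusted p values of 0.001 and of 0.05. The *M1BP* transcript itself averaged 50.5 ± 1.29 normalised counts in M1BP RNAi and 130.5 ± 16.1 in WT (SD, n = 3 each), with a log2 fold change of −1.36 (SE 0.16, adjusted p = 3.36e-04 from edgeR). The flight muscle genes fln and Act88F were high in every sample, but markers of this list moved in both directions. Act88F had 281650 to 446355 normalised counts in M1BP RNAi and 83819 to 110520 in WT. Mf had 26738 to 35910 in M1BP RNAi and 302515 to 373030 in WT. The summed level of 8 flight muscle markers was 1220904 to 1741739 normalised counts in M1BP RNAi and 1028570 to 1091532 in WT, with 4 of the 8 higher and 1 lower at 0.05. Markers of other cell types moved with the condition. Of 5 fat body markers tested, 4 were lower and 1 higher at 0.05, and the list summed to 12243 to 25920 normalised counts in M1BP RNAi and to 48627 to 85807 in WT. All 4 haemocyte and all 4 neuron markers were lower, with sums of 1443 to 2039 (haemocyte) and 1337 to 1762 (neuron) in M1BP RNAi, against 2691 to 3339 and 2691 to 3618 in WT. Both tracheal markers and the glial marker repo were lower too, with tracheal sums of 235 to 371 in M1BP RNAi and 585 to 611 in WT, and repo at 46.5 to 49.5 in M1BP RNAi and 87.6 to 109.5 in WT. M1BP RNAi sample 1 stood apart in genes of other tissues. Its normalised counts were 127 for the ovary gene osk, 313 for the fat body gene Lsp2 and 16711 for the tubular muscle gene Act79B, against at most 1.83, 35.1 and 6921 in the other M1BP RNAi samples. The part of these other cell types in the results was not tested.

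The promoter element is shown first, since it is the site of the factor that was knocked down. The study's supplement lists, for promoters of OXPHOS genes, the stretches matching the M1BP motif. Of the 35 promoters of these genes that were scanned, 7 (20.0%) had a listed match holding the letters GGTCACACT, against 14 of the 89 other OXPHOS promoters (15.7%). The search was for these exact letters within the matches, in the orientation of the motif as listed. The genes were ND-13A, ND-18, ND-ACP, ND-B14, ND-B17, ND-MWFE and ND-PDSW. Matches follow 5′ to 3′ for 5 of these, with the 9 letters in capitals. For ND-B17.2 and ND-15, which were lower in M1BP RNAi, the closest 9 letters are in capitals.
ND-PDSW: actgcGGTCACACTggct
ND-ACP: catacGGTCACACTgcta
ND-18: cgcctGGTCACACTggca
ND-B17: agtgcGGTCACACTggcg
ND-13A: tcagcGGTCACACTggtt
ND-B17.2: ggttcGGCCACACTgcca
ND-15: cagctGGGAACTCCgtca
Counted from 1 at the first capital, ND-B17.2 carries 1 substitution (T3C) and ND-15 carries 4 (T3G C4A A7T T9C). These genes lie on chromosomes 2L (ND-PDSW, ND-B17, ND-13A, ND-B17.2 and ND-15), 3L (ND-ACP) and X (ND-18). A match is a description of letters and not evidence of binding.

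Of the 41 genes, 35 passed the filter on low counts: all 7 core genes, all 26 accessory genes, CG40472 and ND-MLRQ. The 6 that did not were the paralogs. At an adjusted p of 0.001, 3 of the 35 were lower in M1BP RNAi than in WT (ND-B14, CG40472 and ND-B17.2), against 6.58% of all genes tested. In edgeR or DESeq2, 0 were higher at 0.001, against 11.0% of all genes in edgeR and 18.1% in DESeq2. In edgeR, 2 were higher at an unadjusted p under 0.05. At 0.05, 7 were lower, against 27.0% of all genes, and 1 was higher, against 29.1%. The median log2 fold change was −0.08 over the 35 genes and 0.02 over all genes tested, with 21 of the 35 below 0 and 14 above. In 6 genes every M1BP RNAi sample was below every WT sample, against 31.1% of all genes, and in 2 every M1BP RNAi sample was above, against 33.1%. The share lower at 0.001 (8.57%) was near that of all genes, and the shares called at 0.05 were below it in both directions, in a comparison in which 2508 genes fell and 2701 rose at 0.05. DESeq2 called 7 of the 35 genes lower at 0.001, where it called 14.8% of all genes lower. Scaling to total counts in place of TMM left 1 lower at either threshold (ND-B14) and 21 higher at 0.05, a scaling under which 56.0% of all genes were higher at 0.05 and the median of all genes itself was 0.77.

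**Figure D1:**
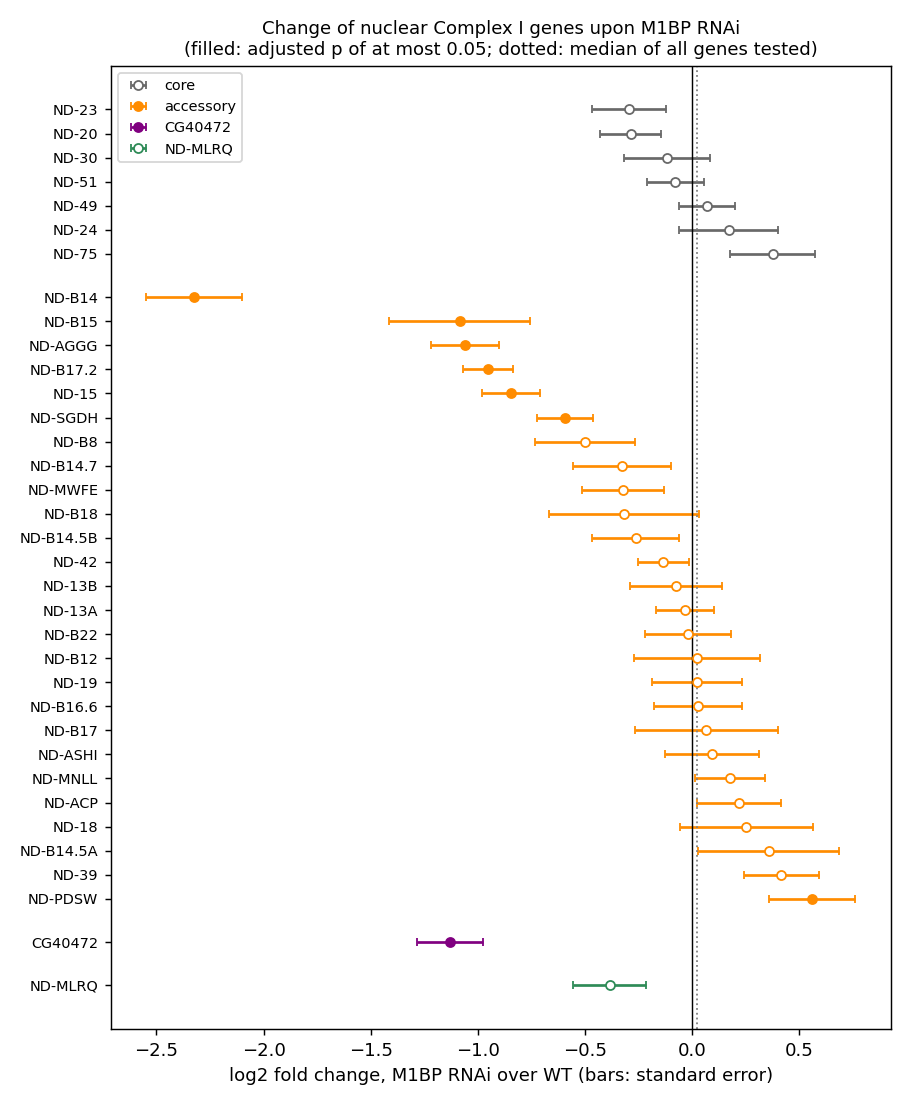
Log2 fold change of M1BP RNAi over WT for the 35 nuclear Complex I genes tested, by class, with standard errors as bars. Filled points mark an adjusted p of at most 0.05 in edgeR, and the dotted line is the median of all genes tested. The 7 core genes lie between −0.29 and 0.38 with open points, whereas the accessory genes reach from −2.32 for ND-B14 to 0.56 for ND-PDSW.

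The core subunits of the peripheral arm did not pass either threshold, with 0 of the 7 called in edgeR or DESeq2 and 0 at an unadjusted p under 0.05 in edgeR. Of all genes tested, 27.0% were lower and 29.1% higher at 0.05 in edgeR, and 25.7% lower and 27.0% higher in DESeq2. Under total library size scaling, where the median of all genes was 0.77 and 56.0% of them were higher at 0.05, every core gene but ND-23 was higher. With upper quartile factors ND-20 was the core gene lower at 0.05, where 32.9% of all genes were lower. Their median log2 fold change was −0.08 and the lowest adjusted p of the 7 was 0.119 (edgeR, for ND-20). In all 7 the M1BP RNAi and WT samples overlapped, whereas in 31.1% of all genes every M1BP RNAi sample was below WT and in 33.1% above. The fold changes of the 7 were below 0 in 4 genes and above 0 in 3. ND-51, which binds the flavin and oxidises NADH, had 48032, 50740 and 49487 normalised counts in M1BP RNAi, against 52554, 45944 and 57905 in WT, a log2 fold change of −0.08 (SE 0.13, adjusted p = 0.643 from edgeR). The M1BP RNAi samples fell within the WT range. ND-24, an iron-sulphur subunit beside ND-51, had 18559, 14306 and 16942 normalised counts in M1BP RNAi and 14326, 10421 and 19499 in WT, with a log2 fold change of 0.17 (SE 0.23). ND-75, the large subunit that carries several of the iron-sulphur clusters, had 24478, 20301 and 19707 normalised counts in M1BP RNAi and 17599, 12271 and 19825 in WT. Only the lowest M1BP RNAi sample of ND-75 was under the highest WT sample, and its log2 fold change of 0.38 (SE 0.20, adjusted p = 0.139 from edgeR) was the largest among the core genes.

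Nearer to the ubiquinone site, ND-49, a subunit that lines the quinone pocket and whose gene is on chromosome 4, had 71411, 85879 and 79904 normalised counts in M1BP RNAi and 76537, 78828 and 70666 in WT, with a log2 fold change of 0.07 (SE 0.13). ND-20, which holds the last cluster before ubiquinone, had 17776, 15016 and 16317 normalised counts in M1BP RNAi and 21522, 17219 and 21153 in WT, with a log2 fold change of −0.29 (SE 0.14). The groups of ND-20 overlapped by 1 sample on each side. ND-23, which carries further clusters, had 14811, 11457 and 12523 normalised counts in M1BP RNAi and 16692, 12691 and 18195 in WT, with a log2 fold change of −0.29 (SE 0.17). ND-30 had 15372, 13083 and 12170 normalised counts in M1BP RNAi and 16952, 10623 and 16506 in WT, with a log2 fold change of −0.12 (SE 0.20). In ND-23 the lowest WT sample was below 1 of the M1BP RNAi samples, and in ND-30 it was below all of them.

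The accessory subunits spread more widely, between −2.32 and 0.56, around a median of −0.05. Of the 26, 2 (7.69%) were lower at 0.001, against 6.58% of all genes tested. At 0.05, 6 (23.1%) were lower and 1 (3.85%) higher, against 27.0% and 29.1% of all genes. By place in the complex, 2 of the 8 accessory genes of the peripheral arm were lower at 0.05 (ND-B14 and ND-B17.2), and 4 of the 17 of the membrane arm were lower (ND-AGGG, ND-15, ND-SGDH and ND-B15) and 1 higher (ND-PDSW). ND-ACP, whose product sits in both arms, passed neither threshold. No difference between the arms or between core and accessory genes was tested.

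ND-B14 (FBgn0033570, chromosome 2R, minus strand) had the lowest fold change of the 35 genes. Its mammalian counterpart, NDUFA6, is a small protein of the LYR family that anchors an acyl carrier protein to the peripheral arm. It had 1564, 1215 and 1223 normalised counts in M1BP RNAi, against 7002, 4798 and 8230 in WT. The groups lay far apart, the highest M1BP RNAi sample being under the lowest WT sample, and the log2 fold change was −2.32 (SE 0.22, adjusted p = 1.35e-04 from edgeR), or 5.01-fold lower. Set against the median accessory gene of the same sample, per kilobase of exon, ND-B14 stood at 16.14%, 15.86% and 16.99% in M1BP RNAi and at 65.70%, 72.96% and 78.54% in WT. Within-sample ratios were thus closer together among replicates than the counts, and the separation of the groups remained. ND-ACP, the acyl carrier protein gene, had 22689, 16606 and 16568 normalised counts in M1BP RNAi and 17501, 12500 and 17951 in WT, overlapping, with a log2 fold change of 0.22 (SE 0.20).

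ND-B17.2 (FBgn0031436; release 6, chromosome 2L from 2579201 to 2580172, minus strand) encodes the counterpart of NDUFA12, an accessory subunit of the peripheral arm that in human cells takes the place of an assembly factor late in assembly. It had 21635, 22756 and 21593 normalised counts in M1BP RNAi, against 44966, 42993 and 39669 in WT. Both groups were tight, with coefficients of variation of 3.00% in M1BP RNAi and 6.29% in WT, and did not overlap. The log2 fold change was −0.95 (SE 0.12, adjusted p = 4.35e-04 from edgeR). Relative to the median accessory gene of the sample, ND-B17.2 was at 186%, 248% and 251% in M1BP RNAi and at 352%, 546% and 316% in WT.

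CG40472 (FBgn0085736; chromosome 3L from 24927130 to 24927710, plus strand) was the only gene besides ND-B14 and ND-B17.2 past 0.001. It had 1017, 1009 and 1369 normalised counts in M1BP RNAi and 2309, 2595 and 2533 in WT. The groups did not overlap, and the log2 fold change was −1.13 (SE 0.15, adjusted p = 6.33e-04 from edgeR). On the same strand of 3L lies ND-AGGG (FBgn0058002; from 24976254 to 24977118), the counterpart of the single-pass membrane subunit NDUFB2. ND-AGGG had 16247, 12402 and 12859 normalised counts in M1BP RNAi and 32547, 28200 and 25845 in WT, again without overlap. Its log2 fold change was −1.06 (SE 0.16), with an adjusted p of 0.00104 in edgeR, just outside the stricter threshold. Per kilobase of exon, CG40472 was at 10.14%, 13.18% and 17.24% of ND-AGGG in M1BP RNAi and at 11.49%, 14.90% and 15.87% in WT. The ratio of the pair overlapped between the conditions although CG40472 was 2.19-fold lower and ND-AGGG 2.09-fold lower. How much sequence the pair shares was not examined. Only uniquely mapped reads were counted, so reads of any shared stretch could have been lost as multiply mapped.

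None of the calls at 0.001 held in every fit that left out 1 library. ND-B14 stayed past 0.001 without M1BP RNAi sample 1, WT sample 2 or WT sample 3, and reached an adjusted p of at most 0.00122 (edgeR) when any 1 library was left out. CG40472 stayed past it only without M1BP RNAi sample 3, and ND-B17.2 in none of the 6 fits, with adjusted p values of at most 0.0041 and 0.0037 (edgeR). The number of genes lower at 0.001 was 2 without M1BP RNAi sample 1 (ND-AGGG and ND-B14), 1 without M1BP RNAi sample 3, WT sample 2 or WT sample 3, and 0 without M1BP RNAi sample 2 or WT sample 1. In the same fits 1.93% to 4.63% of all genes were lower at 0.001, against 6.58% with all 6 samples. At 0.05 ND-B14, CG40472, ND-B17.2, ND-AGGG, ND-15 and ND-SGDH were each called in all 6 of these fits.

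**Figure D2:**
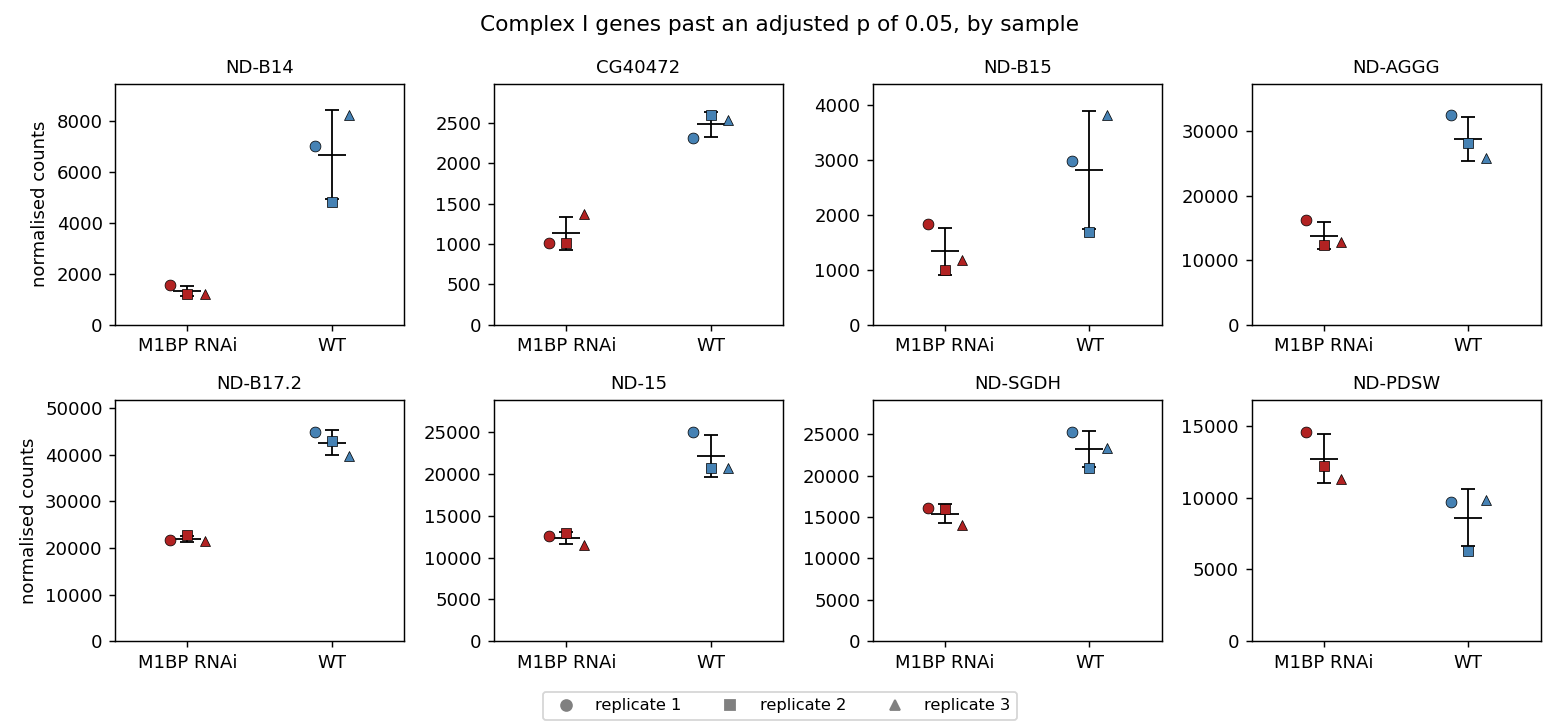
Normalised counts of the 8 Complex I genes past an adjusted p of 0.05, by sample, with M1BP RNAi on the left of each panel and WT on the right. Symbols give the replicate, and bars the mean and SD (n = 3). The groups are apart in 7 genes and overlap in ND-B15, where WT sample 2 is below M1BP RNAi sample 1.

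The other called accessory genes belong to the membrane arm. ND-15 (FBgn0031228; chromosome 2L from 114726 to 156030, plus strand), whose counterpart NDUFS5 faces the intermembrane space, had 12615, 12946 and 11511 normalised counts in M1BP RNAi and 25091, 20683 and 20791 in WT. Its log2 fold change was −0.84 (SE 0.13, adjusted p = 0.00134 from edgeR). ND-SGDH (FBgn0011455; chromosome 3L from 12137496 to 12138584, minus strand), the counterpart of NDUFB5, had 16107, 15964 and 14068 normalised counts in M1BP RNAi and 25313, 20909 and 23382 in WT. The groups of both genes were apart, and the log2 fold change of ND-SGDH was −0.59 (SE 0.13, adjusted p = 0.00629 from edgeR). ND-B15 (FBgn0033961, counterpart of NDUFB4) had 1831, 999 and 1178 normalised counts in M1BP RNAi and 2982, 1687 and 3825 in WT. Here the groups overlapped, and although the fold change was as large as that of ND-AGGG (−1.08), its standard error was 0.33 and its adjusted p 0.0241 in edgeR. It was called at 0.05 in 2 of the 6 fits that left out a library, without M1BP RNAi sample 1 and without WT sample 2, and its adjusted p reached 0.0804.

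Only ND-PDSW was higher at 0.05. Its counterpart NDUFB10 is a membrane-arm subunit on the intermembrane space side. It had 14605, 12192 and 11315 normalised counts in M1BP RNAi and 9691, 6298 and 9837 in WT, without overlap, and a log2 fold change of 0.56 (SE 0.20, adjusted p = 0.0436 from edgeR). The call was kept in 1 of the 6 fits without a library (without WT sample 3), where its fold change ranged from 0.39 to 0.68 and its adjusted p reached 0.113 in edgeR. ND-39, the counterpart of the NADPH-binding subunit NDUFA9, was the other gene with every M1BP RNAi sample higher. It had 41183, 37174 and 35755 normalised counts in M1BP RNAi and 29894, 21933 and 33631 in WT, with a log2 fold change of 0.42 (SE 0.18) that did not pass 0.05 (adjusted p = 0.0775 from edgeR). It passed 0.05 without WT sample 3 (0.56, adjusted p = 0.0383 from edgeR) and under total library size scaling (1.16, adjusted p = 0.0015 from edgeR).

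The remaining 18 accessory genes had log2 fold changes from −0.50 (ND-B8) to 0.36 (ND-B14.5A), with a median of 0.00 and 9 on each side of 0. In none of them were the groups apart, whereas M1BP RNAi was below WT in 31.1% of all genes and above in 33.1%. At 0.05, 0 passed in edgeR or DESeq2 (0 at an unadjusted p under 0.05 in edgeR). Of all genes, edgeR called 27.0% lower and 29.1% higher, and DESeq2 25.7% and 27.0%. These 18 were what remained once the accessory genes called at 0.05 and ND-39 were set apart. The lack of edgeR calls and of separate groups follows from that choice, which also bears on the median. ND-B8 was lower at 0.05 without WT sample 2 and with upper quartile factors. Under total library size scaling 12 of the 18 were higher at 0.05, as were 56.0% of all genes. ND-B22 was the nearest to 0. It had 11701, 8336 and 9049 normalised counts in M1BP RNAi and 11175, 7485 and 10798 in WT, and a log2 fold change of −0.02 (SE 0.20, adjusted p = 0.944 from edgeR). ND-42, the counterpart of the nucleoside kinase-like NDUFA10, was among the most evenly measured, with 26671, 27269 and 26379 normalised counts in M1BP RNAi, 31537, 27223 and 29419 in WT and a log2 fold change of −0.13 (SE 0.12). ND-MLRQ, outside both classes, had 56335, 50362 and 47724 normalised counts in M1BP RNAi and 81923, 64544 and 55185 in WT. Its highest M1BP RNAi sample was above its lowest WT sample, and the log2 fold change of −0.38 (SE 0.17, adjusted p = 0.0912 from edgeR) was not called. ND-MLRQ was lower at 0.05 without WT sample 3 (−0.50, adjusted p = 0.0416 from edgeR), with upper quartile factors (−0.53, adjusted p = 0.0359 from edgeR) and with DESeq2 (−0.40, adjusted p = 0.0492), and higher under total library size scaling (0.39, adjusted p = 0.0372 from edgeR).

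The letters GGTCACACT stood in promoters of genes with fold changes on both sides of 0. The 7 genes with them had a median log2 fold change of 0.07, from −2.32 (ND-B14) to 0.56 (ND-PDSW), with 3 below 0 and 4 above, so that both ends of the whole range were among them. The 17 genes with another listed match had a median of −0.07 (from −1.08 to 0.42), and the 11 with no match listed had a median of −0.29 (from −1.13 to 0.36). Of the 7 genes lower at 0.05, 1 had the letters (ND-B14), 3 had another match (ND-B17.2, ND-15 and ND-B15), and 3 had none listed (CG40472, ND-AGGG and ND-SGDH). Sorting by exact letters sets near matches such as that of ND-B17.2 apart, and the part of the motif in these changes was not tested.

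Levels were compared between genes per kilobase of exon. In WT, ND-B17.2 was the highest of the 33 core and accessory genes at 58039 ± 3652 normalised counts per kb (SD, n = 3), followed by ND-49 at 47297 ± 2643, ND-AGGG at 38743 ± 4563 and ND-51 at 32789 ± 3768. In M1BP RNAi, ND-49 came first at 49633 ± 4564, then ND-51 at 31081 ± 852, with ND-B17.2 at 30006 ± 899 behind it and ND-AGGG ninth at 18572 ± 2820. ND-B14 was 32nd of 33 in M1BP RNAi at 2179 ± 325, against 23rd in WT at 10910 ± 2841. Most neighbours in these orders did not differ beyond their replicates, since the samples overlapped in 29 of the 32 neighbouring pairs in each group. The pairs that did not overlap were ND-49 over ND-51, ND-B17.2 over ND-39 and ND-ASHI over ND-18 in M1BP RNAi, and ND-B17.2 over ND-49, ND-49 over ND-AGGG and ND-51 over ND-SGDH in WT.

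The classes had similar levels. The median core gene was at 15603 normalised counts per kb in M1BP RNAi and 15055 in WT, and the median accessory gene at 13597 in M1BP RNAi and 15578 in WT. The core genes spanned a 6.08-fold range of mean level in M1BP RNAi and a 7.52-fold range in WT, whereas the accessory genes spanned 15.7-fold in M1BP RNAi and 24.5-fold in WT, from ND-B14.5A in WT and ND-B18 in M1BP RNAi to ND-B17.2. Such a range tends to widen with the number of genes, here 7 core and 26 accessory. The SD of log2 level per kb over core genes was 0.75 to 0.96 in M1BP RNAi samples and 0.84 to 1.11 in WT samples. Over accessory genes it was 1.11 to 1.27 and 1.07 to 1.41. The lowest level of the tested core genes was that of ND-75, at 8161 ± 987 in M1BP RNAi and 6289 ± 1474 in WT.

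**Figure D3:**
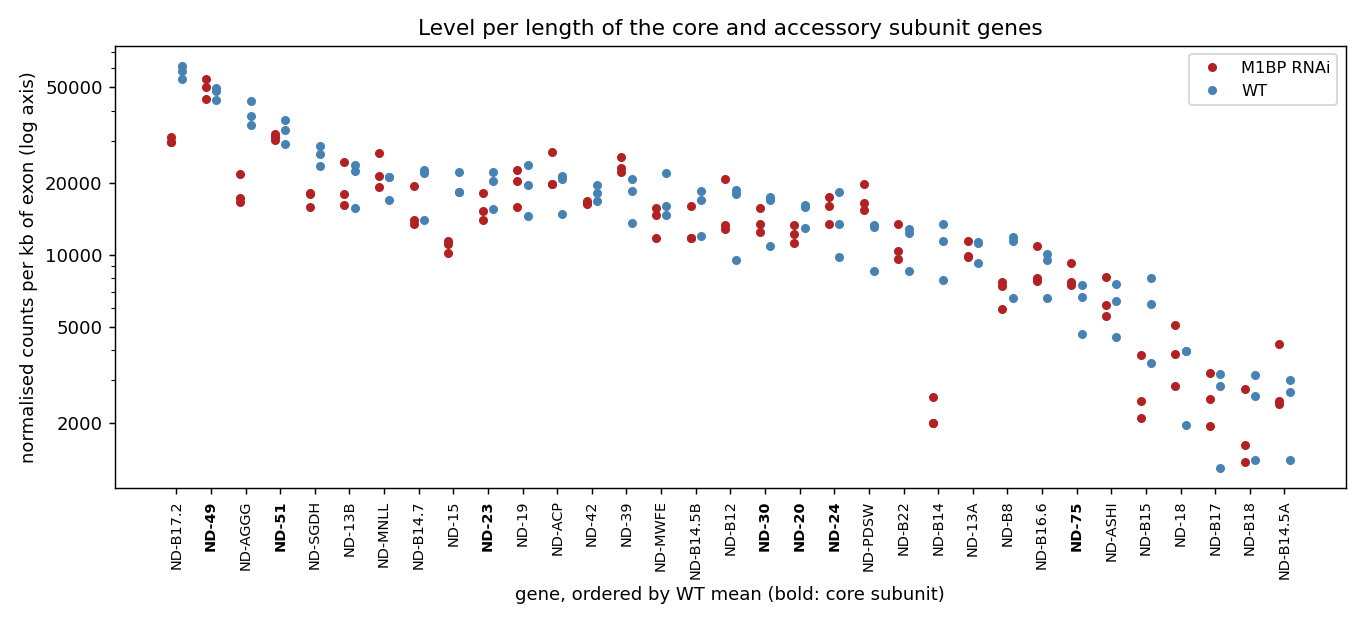
Normalised counts per kilobase of exon (log axis) of the 33 core and accessory genes, ordered by their WT mean, with each M1BP RNAi sample in red to the left of the WT samples in blue and core genes in bold. ND-B17.2, ND-AGGG and ND-SGDH are separated at the high end, and ND-B14 lies near the bottom in M1BP RNAi (2179 ± 325) but in the lower middle in WT (10910 ± 2841).

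The replicates of a group were not spread evenly for these genes. WT sample 2 was the lowest of the WT samples in 30 of the 35 genes (85.7%), against 33.7% of all genes tested, and M1BP RNAi sample 1 was the highest of its group in 29 of 35 (82.9%), against 36.4% of all genes. M1BP RNAi sample 1 is also the library with the high osk, Lsp2 and Act79B counts. The shortfall in WT sample 2 was larger for genes of lower level. It stood at 0.431 times the mean of WT samples 1 and 3 for ND-B17 and 0.492 times for ND-B14.5A, but at 1.02 times for ND-B17.2 and 1.07 times for ND-49. Across the 35 genes, Spearman's rho between the WT mean and this ratio was 0.73, and that between the WT mean and the ratio of M1BP RNAi sample 1 to its group's other samples was −0.66. These values describe genes measured in the same libraries and are given without a test. CG40472 did not follow the rest, with a low WT mean of 2479 normalised counts and a ratio of 1.07. The standard error of the fold change was likewise smallest for the abundant genes (rho −0.78 with the WT mean) and ranged from 0.12 (ND-42) to 0.35 (ND-B18), so that a change of the size of ND-SGDH's (−0.59) would be within 2 standard errors for the least precise genes. The fold change itself had a rho of −0.10 with the WT mean.

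**Figure D4:**
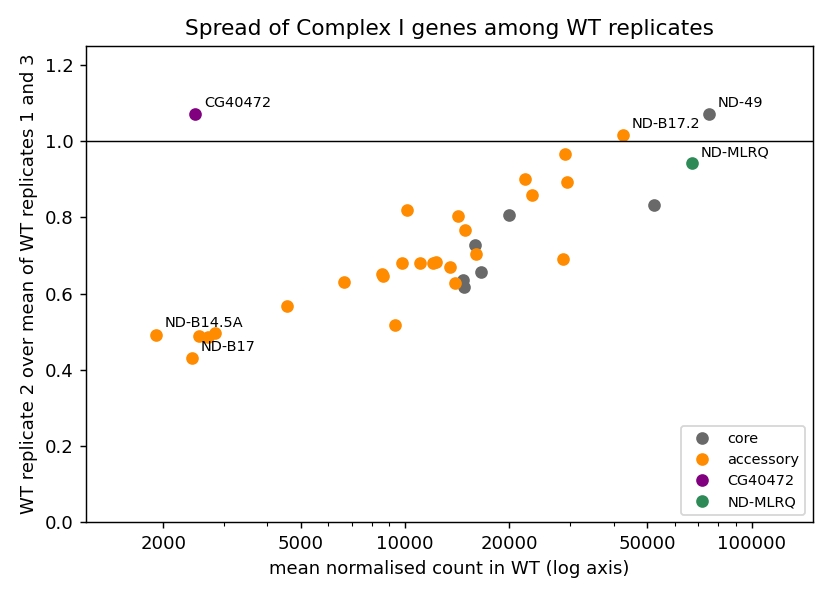
Ratio of WT sample 2 to the mean of WT samples 1 and 3 for each of the 35 genes tested, against the mean normalised count in WT (log axis), coloured by class. Most points lie under 1, from 0.431 (ND-B17) upwards, and the abundant genes ND-49 and ND-B17.2 are at 1.07 and 1.02, as is CG40472 at 1.07 despite its low level.

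The paralogs were all but silent. ND-20L, ND-24L, ND-49L and ND-B14.5AL had 0 counts in each of the 6 samples. ND-51L1 had raw counts of 0, 1 and 0 in M1BP RNAi and 0, 1 and 0 in WT, and ND-51L2 had 1, 1 and 0 in M1BP RNAi and 1, 0 and 1 in WT. A count of 0 allows up to 3 counts, that is 1.10e-05% to 1.74e-05% of a library's nuclear counts in M1BP RNAi and 1.62e-05% to 2.80e-05% in WT (counting error only). The genes they are named after had between 852 counts (lowest sample of ND-B14.5A) and 130729 counts (highest sample of ND-49) per library, and every paralog is on another chromosome arm than its namesake (ND-51L1 and ND-51L2 on 2R against ND-51 on 2L, ND-24L on 3L against ND-24 on X). No difference between the conditions could be detected for them at this depth. The testis markers dj, betaTub85D and aly were also at 0 in all 6 samples. The remaining testis marker, can, had normalised counts of 1.03 in M1BP RNAi sample 1, 1.71 in WT sample 1 and 1.89 in WT sample 3, and 0 in the others.

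Some of the values depend on how reads were assigned. The whole exon length of ND-MNLL is shared with CG45089 on the same strand, and both were given the same 90585 counts in total, so that the 2 genes cannot be separated. ND-MWFE shares 15.2% of its exon length with Nrk on the same strand. Of the called genes, ND-15 (15.7%), ND-B14 (12.9%), ND-SGDH (7.21%) and ND-B15 (1.89%) overlap an exon of a gene on the opposite strand, and since the strand setting of the counting is not given in the sources used here, reads of such partners may be included. The opposite-strand partners CG3709 (432 counts over the 6 samples, beside 96227 for ND-15), CG12942 (119, beside 21140 for ND-B14) and Atg12 (392, beside 109853 for ND-SGDH) had few counts, whereas Trs31 had 1347 beside 11760 for ND-B15. Some genes that were not called had opposite-strand partners with more counts. FBgn0028336 had 194778 beside 53539 for ND-ASHI (5.56% of its exon length), and TppII 11497 beside 75989 for ND-MWFE (19.8%). Gs1l had 9687 beside 22332 for ND-B8 (15.4%), and CG4230 8034 beside 59471 for ND-13A (12.4%).

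The other genes of Complex I are given beside these, with no test of a difference from them. Of the 7 subunit genes of mtDNA, 3 were lower at 0.05 (ND4, ND4L and ND5) and 3 higher (ND2, ND3 and ND6), where 27.0% of all genes were lower and 29.1% higher. At 0.001, 1 of the 7, ND3, was higher in edgeR, against 11.0% of all genes. DESeq2 called 4 lower and 3 higher at 0.05 (25.7% and 27.0% of all genes), and 2 lower and 3 higher at 0.001 (14.8% and 18.1%). Values of the mtDNA genes under other scalings are not given here. ND5, the terminal pump of the membrane arm, averaged 842247 ± 71106 normalised counts in M1BP RNAi and 1513366 ± 92107 in WT (SD, n = 3 each), with a log2 fold change of −0.85 (SE 0.14, adjusted p = 0.00151 from edgeR), whereas ND3 averaged 146422 ± 17747 in M1BP RNAi and 62956 ± 7624 in WT, with 1.22 (SE 0.16, adjusted p = 4.88e-04 from edgeR). The nuclear subunit genes with other names, NP15.6 (0.06) and CG11752 (0.20), were not called in edgeR or DESeq2. Of 13 assembly factor genes listed by the study for Complex I, 6 (46.2%) were higher at 0.05 and 1 (7.69%) lower, against 29.1% and 27.0% of all genes. Their median log2 fold change was 0.30. At 0.001, 3 (23.1%) were higher, l(2)37Bb (2.51), CG15653 (2.31, listed for Complex IV as well) and CG8067 (1.28), against 11.0% of all genes. At 0.001, 0 were lower in edgeR, against 6.58% of all genes, and 1 in DESeq2, against 14.8% (1 at an unadjusted p under 0.05 in edgeR). The one lower at 0.05 was CG3262, with a log2 fold change of −0.79 (SE 0.16).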

How the data were processed

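RNA-seq of adult indirect flight muscle was available for 6 samples, grouped by the genotype given in the labels (3 M1BP RNAi, 3 WT). The authors deposited raw counts of uniquely mapped reads over exons per gene on release 6 of the genome. The submitters' processing notes name dm6, Subread and featureCounts, and the annotation and strand setting are not given in the sources used here. Libraries were made with a stranded poly(A) kit. A deposited table of the authors' own DESeq2 comparison (fold changes and p-values) was used only to pair gene identifiers with symbols. Start and end positions in the count table were the same as in Ensembl release 115 for all 41 genes.

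Counts were filtered with filterByExpr, TMM-normalised and tested with glmQLFit and glmQLFTest of edgeR 4.0.16 (R 4.3.3) on the 6 samples, with Benjamini-Hochberg adjustment over 9276 genes and thresholds of 0.001 (the study's own) and 0.05. The 3 samples of a group are separate pools of flies, and the tests were tried on simulated data. Normalised counts are counts divided by the effective library size and multiplied by its mean over samples. Alternatives were other scalings, DESeq2 1.42.0, no low-count filter, a replicate block and leaving out each library. Replicate numbers did not pair the samples. All 41 genes could be named, with values per sample for those past 0.001, the largest rise, the core genes, the next 5 accessory genes by adjusted p and the accessory gene nearest to 0. ND-42, ND-ACP, ND-MLRQ and genes outside the 41 were added for their role. The genes, classes and lists were chosen with earlier results of these data known. Motif matches are sequences from the study's supplement, and promoter windows were not scanned here.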

Additional observations from a re-analysis of the deposited data

How the results depend on the processing

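The count of genes lower at 0.001 was 3 as reported (6.58% of all genes), 7 with DESeq2 (14.8% of all genes), 5 with upper quartile factors (9.41%), and 1 (ND-B14) both with total library size scaling (1.48%) and with the replicate block (2.65%). Leaving out 1 library at a time gave 0 to 2 genes lower at 0.001 (1.93% to 4.63% of all genes). It gave 0 to 2 higher at 0.05 (24.7% to 29.0% of all genes), against 1 as reported (29.1%). With mtDNA genes left out, 0 of the 35 genes were higher at 0.05, against 28.2% of all genes. With upper quartile factors, 0 of the 35 were higher at 0.05, against 2319 of all 9276 genes. Under total library size, 1 gene was lower at 0.05 (5.99% of all genes), 1 was higher at 0.001 (27.8%) and 21 higher at 0.05 (56.0%). The median log2 fold changes there were 0.67 over the genes tested, 0.67 over core and 0.70 over accessory genes, beside 0.77 over all genes, and those of ND-SGDH (0.16), ND-B22 (0.74), ND-MLRQ (0.39), ND-51 (0.67), ND-30 (0.64), ND-23 (0.46) and ND-20 (0.47) turned positive. Turns elsewhere were ND-B22 without the low-count filter (0.012) and ND-49 with upper quartile factors (−0.080). Without 1 library, the fold changes of 12 of the 35 genes, none of them called at 0.05, crossed 0, among those with values per sample from −0.17 to 0.11 for ND-B22, −0.15 to 0.010 for ND-51, −0.015 to 0.43 for ND-24 and −0.30 to 0.018 for ND-30. The medians then ranged from −0.22 to 0.010 over the genes tested, −0.15 to 0.018 over core and −0.22 to 0.031 over accessory genes. ND-B14 was the gene called lower at 0.05 under every alternative. The replicate block changed no call at 0.05. Correlations of same-numbered samples' deviations from their group means were 0.05, 0.18 and −0.02. The cause of these shifts was not tested beyond the scaling itself. Depth limits the paralogs, whose counts of 0 or 1 per library allow no comparison, and with 3 samples a group an exact permutation test of 1 gene cannot go below 0.1.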
